A study of Mus musculus with 18 samples.

Results

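The 26S proteasome and the enzymes that activate and conjugate ubiquitin were followed in Oct4 null and wild type mouse embryos. Members are the genes whose symbol begins with Psma to Psmg and a digit, Ube2, or Uba and a digit, with pseudogene symbols left out. The rule found 78 genes among the 8202 of the stage tables, of which 73 of 7082 are in the E2.5 table, 72 of 6648 in the E3.75 table and 70 of 6545 in the E4.5 table, and 67 are in all 3. They divide into 15 core particle genes (7 alpha, 8 beta), 17 regulatory particle genes (6 ATPases, 11 non-ATPases), 7 assembly chaperones, 5 activators or inhibitors, 4 E1 enzymes and 27 E2 enzymes. Psmc3ip (a meiotic recombination factor) and Ube2cbp (a ubiquitin ligase) match by name only and were set apart. Another 20 symbols of the rule are in no stage table and were not analysed here, among them Psmb8, Psmb9, Uba6 and Ube2n.

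The libraries come from CD1 embryos carrying no intact copy of the gene (Oct4 -/-, called null here) or wild type for it (Oct4 +/+). Embryos were taken at E2.5, at E3.75 or at E4.5, with 3 libraries in each of the 6 groups and no treatment. Oct4, encoded by Pou5f1, is a POU-domain transcription factor of the inner cell mass. By the series' design text there were 3 embryos for each genotype and stage, and p-values cover only the variation among them. Whether the third library of each group is a separate embryo could not be settled from the data, as described below. The labels do not say how the null allele was made or which part of the gene it lacks, so the remaining Pou5f1 reads are not a full check of it. Reverse transcription from the poly(A) tail kept the reads close to transcript 3′ ends, and levels are in CPM, reads scaled to a library total of 1000000.

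Ubiquitin is passed from an E1 enzyme to an E2 enzyme and, with a ligase, to a substrate. Chains of ubiquitin send a protein to the 26S proteasome, whose regulatory particle binds, unfolds and deubiquitinates the substrate and whose barrel-shaped core cuts it. Some E1 and E2 enzymes carry the related modifiers SUMO or Nedd8. Cleavage embryos depend on this machinery to clear maternal proteins and to pass through the cell cycle.

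Recovered read totals ran between 364936 (E4.5 null library 1) and 1922432 (E2.5 null library 2), and null libraries were the deeper by median at each stage. Pou5f1 RNA of the 9 null libraries stayed below the wild type range of its stage, with 931, 1011 and 963 CPM in null and 1809, 2093 and 1723 CPM in wild type libraries at E2.5. The third libraries were near mixes of the first and second of their groups: around the best-fitting mix they varied 1.01 to 1.08 times as much as read sampling alone would give, where first and second libraries varied 1.10 to 2.36 times. For this reason some counts of passing genes, and the regulatory particle medians of the later stages, are repeated with 2 libraries a group. Counts of genes without overlap, and the medians of the other groups of genes, are not reported in that way. A near mix of the other libraries adds little to a check of overlap. SDs and p-values here count the third libraries as separate embryos, which could not be settled, so they may understate the variation. Wild type libraries of E4.5 have no numbers and are named A, B and C. Each stage table was scaled by itself, so a level at one stage can be set beside another stage's only roughly, and these reads at 3′ ends were not divided by transcript length, so genes are not ranked by level.

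At E2.5 no member passed the test between genotypes (limma, adjusted p under 0.05), where 0.593% of all genes did. edgeR and DESeq2 also called 0 of 73 (2.53% and 3.36% of all genes), and 7 members had an unadjusted p under 0.05, 5 higher and 2 lower in null, beside 20.4% of all genes. The DESeq2 share counts 1785 of 7082 genes as not called because their adjusted p was undefined. Leaving out wild type library 1 gave 2 calls (Psmd3 and Ube2l3, beside 5.51% of all genes), and leaving out wild type library 2 gave 3 (Psmc3ip, Uba1 and Ube2c, beside 10.9%). At E3.75 4 of 72 members passed, a smaller share than the 8.2% of all genes: Psmc2, Psmc5 and Ube2e3 rose (3.6% of all genes did) and Uba2 fell (4.6%) in null embryos. An unadjusted p under 0.05 was found for 22 members, 17 higher and 5 lower in null, beside 22.8% of all genes. Among the 928 genes with a mean of at least 200 CPM it was found for 394. At E4.5 no member passed, as no gene of the table did (0.0%), while 24 members had an unadjusted p under 0.05, 19 higher and 5 lower in null, beside 15.0% of all genes. Among the 902 genes with a mean of at least 200 CPM there, 274 had one. At that stage edgeR called 0 of 70 members (0.642% of all genes) and DESeq2 called 1, Ube2a (1.71%, with an adjusted p undefined for 3934 of 6545 genes). A fit over all 18 libraries called 5, namely Psmd4, Psmd11, Ube2e3 and Ube2q2 higher and Ube2a lower in null (4.07%). Of these, Ube2q2 reached the E4.5 table through its null libraries alone.

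Summed over its genes, the regulatory particle stood apart by genotype at E3.75. Its 17 genes held 15108, 14509 and 14901 CPM in null libraries and 12505, 13987 and 13047 CPM in wild type libraries, a ratio of means of 1.13. Every null library lay above every wild type library, by the narrowest margin against wild type library 2. At E2.5 the sums were 12799, 12560.5 and 12369.6 CPM in null and 12698, 12289 and 12554 CPM in wild type libraries, which overlapped and had nearly equal means. The 11 non-ATPase genes alone stood apart narrowly at E2.5, with 7429, 7271.5 and 7196 CPM in null and 7070, 7147 and 7167 CPM in wild type libraries. Their ratio of means was 1.02. For the whole particle the sums overlapped again at the last stage. At E4.5 they were 8810, 10035 and 9864 CPM in null and 7162, 8997 and 8069 CPM in wild type libraries. Null library 1 there lay below wild type library B, so the groups overlapped although the ratio of means was 1.18. In whole embryos, fewer cells of a type and less RNA per cell cannot be told apart in such levels.

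The core summed to 14174 ± 261 CPM in null and 14309 ± 1506 CPM in wild type embryos at E2.5, and to 17408 ± 307 CPM in null and 17186 ± 516 CPM in wild type embryos at E3.75 (SD, n = 3 each). At E4.5 it summed to 14088 ± 1143 CPM in null and 12175 ± 1328 CPM in wild type embryos, with overlapping libraries. E1 and E2 genes together summed to 3659 ± 35.0 CPM in null and 3513 ± 188 CPM in wild type embryos at E2.5. Their sums were 2749 ± 99.8 CPM in null and 2857 ± 32.0 CPM in wild type embryos at E3.75, and 2692 ± 87.6 CPM in null and 2724 ± 132 CPM in wild type embryos at E4.5. By itself the sum of the 4 E1 genes stood apart at E3.75, with 687, 762 and 703 CPM in null and 841, 805 and 812 CPM in wild type libraries, a ratio of means of 0.875. All null libraries lay below wild type, while at E2.5 and E4.5 the E1 sums overlapped. Of the 4 E1 genes, 3 were lower in null by mean at E3.75. Uba2, of the SUMO E1, averaged 208 CPM in null and 290 CPM in wild type embryos. Uba1, the main E1 of ubiquitin, was not lower, at 409 CPM in null and 402 CPM in wild type embryos. The ratio of means of the E1 and E2 sum stayed between 0.962 and 1.04.

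**Figure D1:**
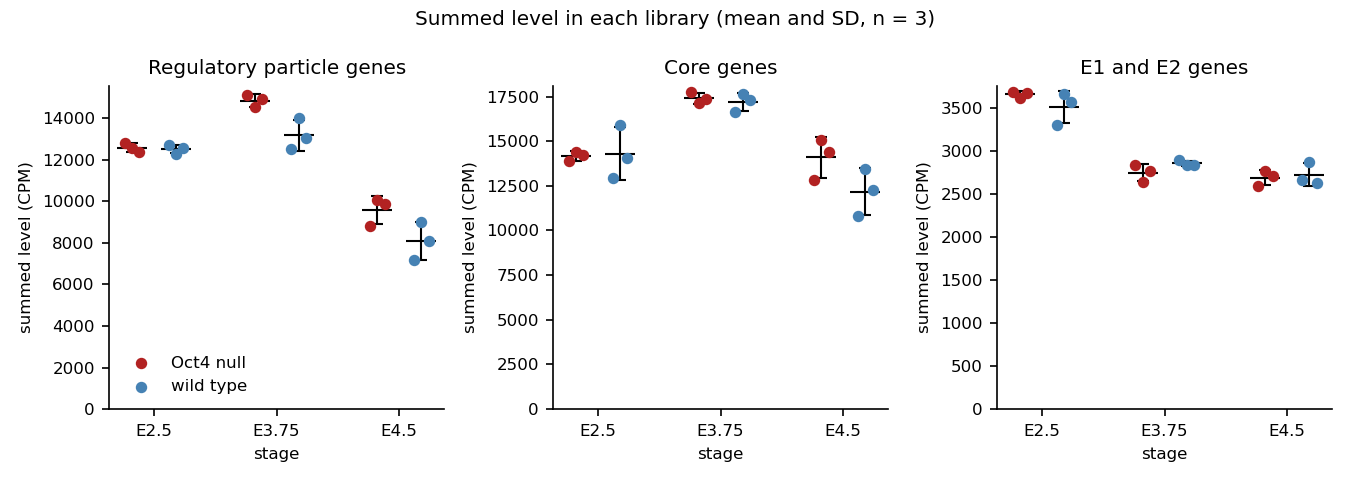
Summed level in CPM of the regulatory particle, core, and E1 and E2 genes in each library (points), with the mean and SD of 3 libraries (bars), null in red left of wild type in blue at each stage. At E3.75 the 3 null libraries sit between 14509 and 15108 CPM for the regulatory particle, above the wild type libraries at 12505 to 13987 CPM, while the core sum and the joint E1 and E2 sum overlap.

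The ATPases Psmc1 to Psmc6 form the ring that unfolds substrates. At E3.75 all 6 were higher in null by mean, with a median log2 difference of 0.18 beside -0.04 over all genes, and 4 of the 6 had no overlap between genotypes. Null lay wholly above wild type for 11.4% of all genes of that table, and for 217 of its 928 genes with a mean of at least 200 CPM, as all 6 ATPases had. Psmc2 had 1499, 1463 and 1516 CPM in null and 1138, 1331 and 1239 CPM in wild type libraries. The lowest null library exceeded the highest wild type library, and the log2 difference was 0.27 ± 0.072 (SE, limma, adjusted p = 0.0196).

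Psmc5 had 1558, 1442 and 1470.4 CPM in null and 1102, 1389.8 and 1238 CPM in wild type libraries at E3.75, again without overlap. Its log2 difference was 0.27 ± 0.079 (SE, limma, adjusted p = 0.0403). Psmc4 stood apart as well, with 1509, 1296 and 1299 CPM in null and 1185, 1236 and 1147 CPM in wild type libraries, and did not pass (log2 difference 0.20, limma, adjusted p = 0.110). Psmc3, with 1571, 1503 and 1525 CPM in null and 1337, 1463 and 1368 CPM in wild type libraries, was the fourth without overlap and did not pass either. Psmc1 and Psmc6 overlapped, at log2 differences of 0.13 and 0.16. Psmc1 has a near copy in a pseudogene, so its reads could have been split.

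At E2.5, 2 of 6 ATPases were higher in null by mean and the median log2 difference was -0.08. Psmc2 had 1251, 1115 and 1159 CPM in null and 1123, 953 and 1057 CPM in wild type libraries, overlapping by a few CPM. Psmc3 lay the other way than at E3.75, with 980.3, 1014 and 1021 CPM in null and 1084, 1225 and 1149 CPM in wild type libraries and a log2 difference of -0.20 (limma, adjusted p = 0.169). At E4.5 all 6 were higher in null by mean (median 0.18, beside 0.06 over all genes), and the groups stood apart for Psmc2 alone. Psmc2 then had 682, 757 and 774 CPM in null and 552, 644 and 626 CPM in wild type libraries, a log2 difference of 0.28 that did not pass (limma, adjusted p = 0.227). For Psmc5 wild type library B reached 861 CPM, inside the null range of 856 to 939 CPM.

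The non-ATPase subunits form the lid and part of the base, and include a ubiquitin receptor and the deubiquitinase. At E3.75, 9 of 11 were higher in null by mean (median log2 difference 0.16), with 4 wholly above wild type and 1 wholly below, and none passed. Psmd11, a lid subunit, had 424, 425 and 424 CPM in null and 329, 387 and 349 CPM in wild type libraries (log2 difference 0.26, limma, adjusted p = 0.104). The null libraries of Psmd11 differed by under 2 CPM, but a pseudogene shares most of its 3′ end, so its value is uncertain. Psmd4, a ubiquitin receptor, had 950.3, 910.1 and 931 CPM in null and 829, 845 and 823 CPM in wild type libraries. Its groups did not overlap and the log2 difference was 0.16 (limma, adjusted p = 0.199).

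Psmd6 and Psmd12, both lid subunits, were the other pair wholly above wild type, at log2 differences of 0.23 and 0.17. Psmd2, a base scaffold subunit, was the exception, with 119, 115 and 118 CPM in null and 145, 142 and 158 CPM in wild type libraries. Its null libraries all lay below wild type (log2 difference -0.33, limma, adjusted p = 0.127), and it too has a near copy in a pseudogene. Null lay wholly below wild type for 15.7% of all genes. Psmd14, the deubiquitinase of the lid, overlapped, with 571, 559.8 and 621 CPM in null and 481, 566 and 573 CPM in wild type libraries.

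At E4.5 all 11 non-ATPase genes were higher in null by mean, with a median log2 difference of 0.26. Psmd11 had 241, 299.7 and 270.3 CPM in null and 177, 223 and 178 CPM in wild type libraries, a log2 difference of 0.49 ± 0.14 (SE, limma, adjusted p = 0.171). Psmd4 had 636, 729 and 733 CPM in null and 459, 634 and 521 CPM in wild type libraries, with null library 1 under 2 CPM above wild type library B. Psmd1 and Psmd12 were the other pair without overlap, so 4 of 11 lay wholly above wild type, as 12.2% of all genes did, and none wholly below, as 9.99% did. Of the 902 genes with a mean of at least 200 CPM, 145 lay wholly above and 165 wholly below. Psmd1, a base scaffold subunit, had 230.2, 262 and 241 CPM in null and 131, 225 and 178 CPM in wild type libraries (log2 difference 0.49), and another annotated gene shares part of its 3′ end. At E2.5, 7 of 11 were higher by mean with a median of 0.04. There Psmd3, a lid subunit, alone lay wholly above wild type, with 1386, 1421 and 1374 CPM in null and 1337, 1082 and 1222 CPM in wild type libraries (log2 difference 0.20, limma, adjusted p = 0.196). Psmd12 lay wholly below wild type at E2.5.

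Taking both kinds of subunit, 9 of the 17 regulatory particle genes found by symbol were higher in null by mean at E2.5, 15 at E3.75 and all 17 at E4.5. Over all genes the shares were 48.3%, 45.4% and 56.0% in the same order. Sem1 and Adrm1, also genes of the particle, do not match the symbol rule and are counted below with the proteasome-bound factors. At E4.5 Sem1 lay wholly below wild type (log2 difference -0.18) and Adrm1 wholly above (0.45). The median log2 difference of the particle was 0.032, 0.16 and 0.24, beside -0.015, -0.04 and 0.06 over all genes. Without the third libraries it was 0.15 at E3.75, with 15 genes higher, and 0.21 at E4.5, with 17 higher. Scaling with TMM factors gave 0.21 and 0.19 and the same numbers of genes higher, and thinning all libraries to equal depth gave 0.18 and 0.25. Among the 928 genes with a mean of at least 200 CPM at E3.75 the median was near 0 and 220 passed the test. The 17 genes share the same libraries, so the numbers higher are not counts of separate observations. Medians of the particle were also taken by library at E4.5, against the wild type mean of each gene. These were 0.16, 0.36 and 0.33 in null and -0.17, 0.17 and 0.0046 in wild type libraries. Null library 1 lay just below wild type library B.

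**Figure D2:**
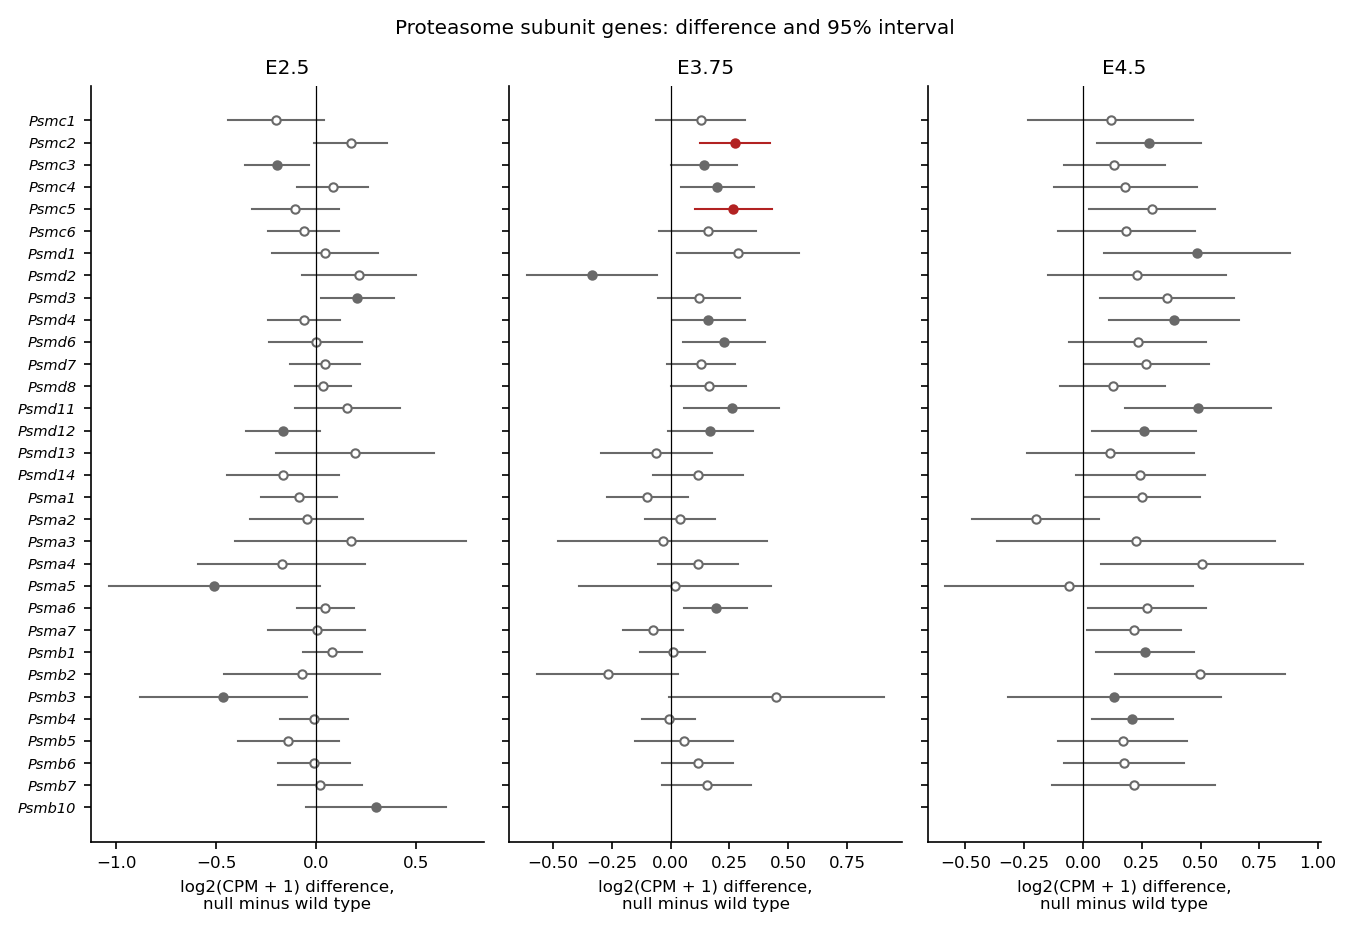
log2(CPM + 1) difference, null minus wild type, of each regulatory particle (Psmc, Psmd) and core (Psma, Psmb) gene with 1 panel per stage and 95% intervals from limma (n = 3 libraries per genotype). Filled points mark genes whose groups did not overlap and red ones those with an adjusted p under 0.05, and all 17 regulatory particle genes sit right of 0 at E4.5.

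The core particle holds 7 alpha subunits, which gate the barrel, and beta subunits, of which Psmb5, Psmb6 and Psmb7 cut proteins. At E3.75, 9 of 14 core genes were higher in null by mean, with a median log2 difference of 0.03, and no core gene passed in limma. Psma6, an alpha subunit, was the sole core gene without overlap, with 1738, 1786 and 1816 CPM in null and 1565, 1541 and 1569 CPM in wild type libraries. Its log2 difference was 0.19 ± 0.064 (SE, limma, adjusted p = 0.0671), and both edgeR and DESeq2 called it. The catalytic genes overlapped at log2 differences of 0.057 for Psmb5, 0.12 for Psmb6 and 0.15 for Psmb7.

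At E2.5, 6 of 15 core genes were higher in null by mean, and 8 of 15 when scaled with TMM factors, with a median of -0.013. Psma5, an alpha subunit, had 23.5, 25.5 and 22.4 CPM in null and 41.5, 30.0 and 32.4 CPM in wild type libraries, all null libraries lying below wild type (log2 difference -0.51, limma, adjusted p = 0.259). Psmb3, a beta subunit without catalytic activity, lay below as well, with 36.7, 35.4 and 36.5 CPM in null and 52.4, 48.4 and 50.3 CPM in wild type libraries. Neither passed, and pseudogenes share nearly all of the searched 3′ end of Psma5 and most of that of Psmb3. Psmb10, a catalytic subunit of the immunoproteasome measured at this stage alone, lay above, with 114, 115 and 107 CPM in null and 104, 74.9 and 96.5 CPM in wild type libraries. Null lay wholly above wild type for 13.6% of all genes at E2.5 and wholly below for 14.1%.

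At E4.5, 12 of 14 core genes were higher in null by mean, among them all 7 beta genes, and the median was 0.22. Psmb1, a beta subunit without catalytic activity, had 1192, 1349 and 1284 CPM in null and 954, 1148 and 1086 CPM in wild type libraries, a log2 difference of 0.26 ± 0.095 (SE, limma, adjusted p = 0.227). Psmb4, also without catalytic activity, stood apart narrowly, with 3927, 4241 and 4188 CPM in null and 3247, 3919 and 3540.3 CPM in wild type libraries. Psmb3 was the third, at a log2 difference of 0.13. Psma2 was lower in null by mean and overlapped, with 556, 774 and 702 CPM in null and 724, 822 and 772 CPM in wild type libraries. The core median was 0.14 without wild type library A, the library with the lowest core sum, and 12 of 14 genes were still higher.

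Assembly chaperones help subunits form rings and modules, and activators cap the core. At E3.75, 2 of 7 chaperones were higher in null by mean (median log2 difference -0.09), and none stood apart by genotype. At E4.5 the median was -0.05, and Psmg1, which scaffolds the alpha ring during assembly, had 82.2, 79.9 and 78.2 CPM in null and 136, 89.2 and 101 CPM in wild type libraries (log2 difference -0.42, limma, adjusted p = 0.317). Its null libraries all lay below wild type. At E2.5, 2 of 6 chaperones were higher in null by mean, with 1 wholly above wild type and 1 wholly below. Psmg4, another ring assembly chaperone, lay below, with 44.8, 42.1 and 43.8 CPM in null and 61.1, 48.4 and 64.0 CPM in wild type libraries. Psmd5 lay above, averaging 47.1 CPM in null and 38.8 CPM in wild type embryos. Over all genes of that stage the shares were 13.6% above and 14.1% below.

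Among the activators, Psme4, which caps the core in place of the regulatory particle, had 65.8, 74.5 and 67.0 CPM in null and 112, 79.5 and 82.7 CPM in wild type libraries at E4.5. The groups stood apart, and the log2 difference of -0.38 did not pass (limma, adjusted p = 0.352). Psme3, the nuclear activator subunit, lay the other way at that stage, with 216, 202 and 198 CPM in null and 153, 171 and 170.0 CPM in wild type libraries (log2 difference 0.32, limma, adjusted p = 0.276). Psme2b had 28.9, 18.2 and 19.5 CPM in null and 11.3, 17.8 and 15.6 CPM in wild type libraries at E3.75. Its 3′ end is 99.4% identical to that of Psme2 over 794 bases, so its reads cannot be assigned with certainty. Psmf1, the inhibitor, overlapped at every stage. Summed, the 5 activator and inhibitor genes stood apart at E3.75, with 461, 439 and 475 CPM in null and 525, 485 and 522 CPM in wild type libraries. The ratio of means was 0.898, and at E2.5 and E4.5 these sums overlapped.

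Of the E1 enzymes, Uba2, the catalytic subunit of the SUMO E1, fell in null embryos at E3.75, where it had 210.4, 204 and 210.1 CPM in null and 333, 254 and 283 CPM in wild type libraries. The highest null library lay well below the lowest wild type library, and the log2 difference was -0.47 ± 0.12 (SE, limma, adjusted p = 0.0140). At E4.5 it had 206, 270.0 and 244 CPM in null and 354, 326 and 309.7 CPM in wild type libraries, again without overlap (log2 difference -0.46, limma, adjusted p = 0.171). At E2.5 the null libraries, at 215, 190.4 and 190.3 CPM, lay inside the wild type range of 156 to 258 CPM.

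Uba1, the main E1 of ubiquitin, was higher in null at the outer stages. It had 634, 536 and 586 CPM in null and 375, 486 and 509 CPM in wild type libraries at E2.5 (log2 difference 0.37, limma, adjusted p = 0.128), and 515, 485 and 471 CPM in null and 293, 432 and 367 CPM in wild type libraries at E4.5 (log2 difference 0.45, limma, adjusted p = 0.193). The groups did not overlap at either stage and the differences did not pass. At E3.75 Uba1 overlapped fully, with 361, 475 and 392 CPM in null and 372, 432 and 401 CPM in wild type libraries. Uba3, the catalytic subunit of the Nedd8 E1, had 17.3, 21.1 and 20.9 CPM in null and 24.4, 22.9 and 36.5 CPM in wild type libraries at E3.75, apart by under 2 CPM.

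The E2 enzymes had no common direction. Among E1 and E2 genes together, null was the higher by mean for 14 of 27 (E2.5), 13 of 27 (E3.75) and 12 of 25 (E4.5), and the median log2 differences were 0.012, -0.0026 and -0.026. At E3.75, 12 of the 27 stood apart by genotype, 5 above and 7 below wild type, where 27.2% of all genes did in either direction. Genes of that stage were listed with at least 10.4 CPM in 3 of 6 libraries. Among the 5 above, Ube2h averaged 13.1 CPM in null and 5.60 CPM in wild type embryos. It reached the listing level through its null libraries, so its separation is not evidence of a difference. At E4.5, 7 of 25 stood apart, 3 above and 4 below, beside 22.2% of all genes, and at E2.5 4 of 27 did, beside 27.8%. The 3 above at E4.5 include Ube2q2, which was listed there through its null libraries alone.

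Ube2e3, an E2 of ubiquitin, rose at E3.75, where it had 247, 212 and 245 CPM in null and 175, 195 and 165 CPM in wild type libraries. The groups did not overlap, and the log2 difference was 0.39 ± 0.12 (SE, limma, adjusted p = 0.0458). At E4.5 it had 104, 113 and 115 CPM in null and 64.5, 91.1 and 81.8 CPM in wild type libraries, apart again but not past the threshold (log2 difference 0.50, limma, adjusted p = 0.223). At E2.5 the groups overlapped at a log2 difference of 0.19.

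Ube2a, which works with Rad18 and related ligases, lay lower in null at E3.75 with 172, 190.5 and 177 CPM in null and 212, 244 and 234 CPM in wild type libraries (log2 difference -0.35, limma, adjusted p = 0.0667). At E4.5 it had 167, 169.6 and 173 CPM in null and 284, 231 and 232 CPM in wild type libraries, and its log2 difference of -0.54 ± 0.13 (SE) had an adjusted p of 0.145 in limma. Its close relative Ube2b overlapped at both stages, at log2 differences of 0.086 and -0.064. Ube2l3, an E2 of HECT and RBR ligases, was likewise below wild type without overlap at both stages, at log2 differences of -0.19 and -0.36.

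Ube2q2, a low gene, had 15.0, 19.6 and 25.7 CPM in null and 11.3, 11.0 and 5.21 CPM in wild type libraries at E3.75. At E4.5 it had 16.4, 11.4 and 11.2 CPM in null and 1.84, 5.82 and 2.76 CPM in wild type libraries, where wild type library A held 1 read. The groups stood apart at both stages, at log2 differences of 1.09 and 1.73, and neither passed (limma, adjusted p = 0.0892 and 0.193). Every gene listed at E4.5 reached at least 10.4 CPM in 3 of 6 libraries, which Ube2q2 did through its null libraries alone. Its separation at E4.5 was therefore set by that filter and is not evidence of a difference. Counts were low for part of the members: 47 of 70 members had at least 20 reads in every E4.5 library, and 62 of 73 in every E2.5 library.

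Ube2r2, a partner of cullin ligases, had 24.7, 27.4 and 23.8 CPM in null and 49.7, 40.7 and 34.9 CPM in wild type libraries at E4.5, a log2 difference of -0.69 (limma, adjusted p = 0.218). Its null libraries all lay below wild type. Ube2c, an E2 of the anaphase-promoting complex, had 765, 788 and 747 CPM in null and 651, 662 and 625 CPM in wild type libraries at E2.5, where the groups stood apart (log2 difference 0.25, limma, adjusted p = 0.116). It overlapped at both later stages. The remaining fixed names showed less: Ube2d3, a broad ubiquitin E2, Ube2m, an E2 of Nedd8, and Ube2s, which extends chains for the anaphase-promoting complex and is in the E3.75 table alone, overlapped wherever measured. Ube2s had 23.1, 13.1 and 9.74 CPM in null and 15.0, 5.09 and 6.94 CPM in wild type libraries.

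**Figure D3:**
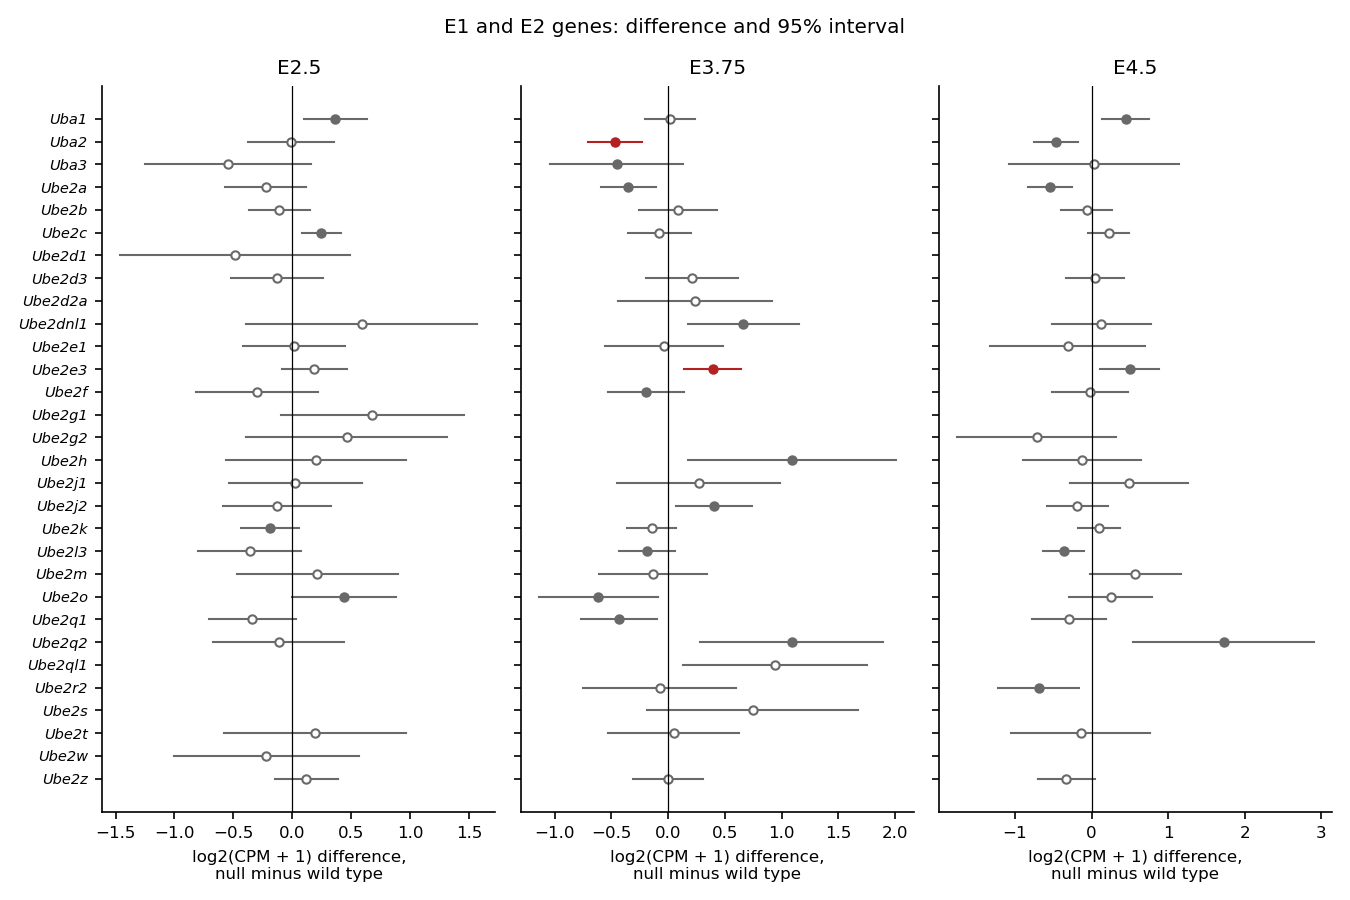
log2(CPM + 1) difference, null minus wild type, of the E1 (Uba) and E2 (Ube2) genes reported here, with 1 panel per stage and 95% intervals from limma (n = 3 libraries per genotype). Filled points mark genes whose groups did not overlap and red ones those with an adjusted p under 0.05: Uba2 lies left of 0 and Ube2e3 right of 0 at E3.75, and points fall on both sides at every stage.

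Of the genes set apart, Psmc3ip had 41.9, 46.3 and 45.4 CPM in null and 19.6, 33.4 and 22.7 CPM in wild type libraries at E2.5, the largest log2 difference of any member there at 0.83 (limma, adjusted p = 0.108).

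The 4 calls at E3.75 depended on which libraries were kept. Without the third libraries none of them passed (2.33% of all genes did), with adjusted p of 0.279 for Psmc2, 0.252 for Psmc5, 0.527 for Ube2e3 and 0.147 for Uba2, while the log2 differences were 0.27, 0.28, 0.31 and -0.49. Over the alternatives run, the adjusted p ran between 0.00696 and 0.279 for Psmc2, 0.00752 and 0.252 for Psmc5, 0.0168 and 0.527 for Ube2e3, and 0.00646 and 0.147 for Uba2. No member passed without null library 3 (4.32% of all genes did) or without wild type library 3 (3.14%). Without null library 1 Uba2 was the sole member to pass (3.32%), and without wild type library 1 it was Ube2a (7.18%). All 4 passed without null library 2, where 5 of 72 members and 6.6% of all genes did, and without wild type library 2, where 7 members and 9.81% of all genes did. edgeR called 8 of 72, with Psma6, Psmc4 and Psmd6 among those beyond the 4, where it called 8.3% of all genes. DESeq2 called 5 (4.62%), adding Psma6, and the 18-library fit called 0 (3.92%). The DESeq2 share counts 3738 of 6648 genes as not called because their adjusted p was undefined, so it understates the background.

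**Figure D4:**
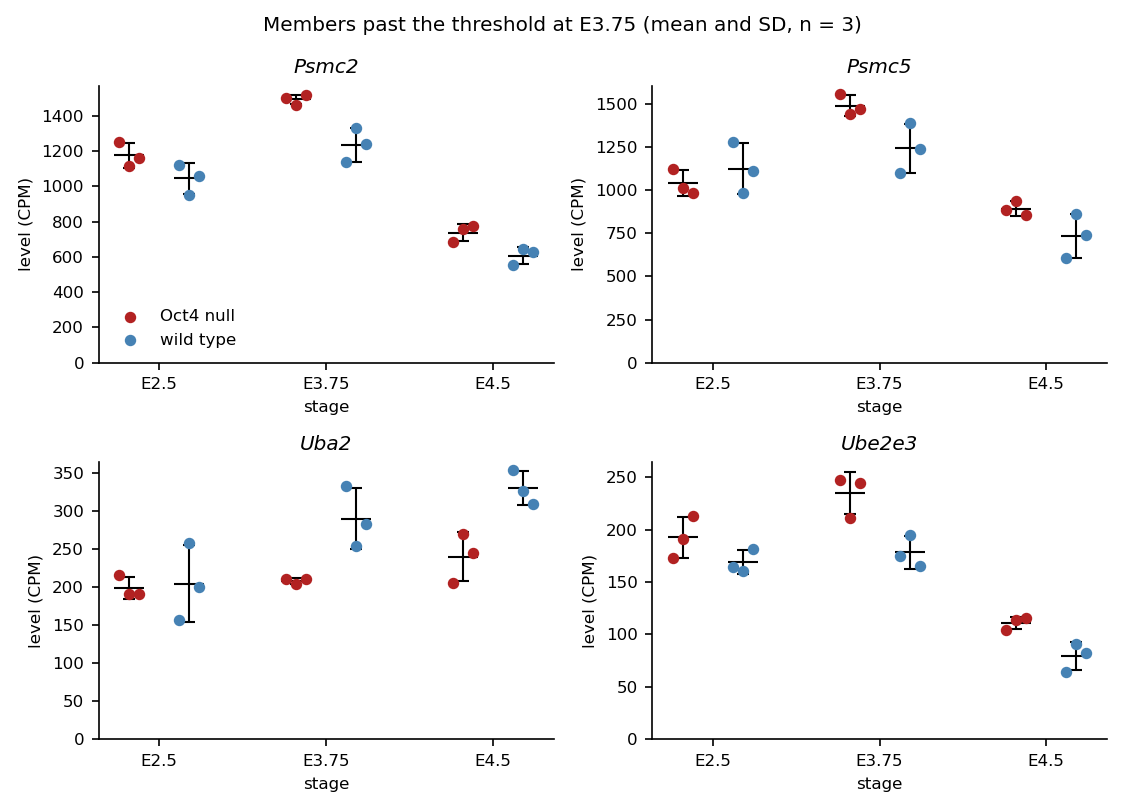
Level in CPM of the 4 members that passed the test at E3.75, in each library (points) with mean and SD (bars, n = 3), null in red left of wild type in blue at each stage. Null libraries lie above wild type at E3.75 for Psmc2, Psmc5 and Ube2e3 and below for Uba2, and the groups of Psmc2, Ube2e3 and Uba2 stand apart again at E4.5.

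Promoters of the called members were read from RefSeq (GRCm38.p6) to set them beside the other members, since most regulatory particle genes lay to the same side. The 250 bases before each start were searched on both strands for TGACNNNGC (the core of the antioxidant response element, used by Nfe2l1 and Nfe2l2), CCAAT (the NF-Y box), GGGCGG (the GC box) and ATGCAAAT (the octamer, a site of POU factors such as Oct4). Capitals mark a match in the sequences, printed in the direction of the gene. The Uba2 window lies at chr7:34168530-34168779 on the minus strand, Psmc2 has starts after chr5:21785025-21785274 and chr5:21786497-21786746 on the plus strand, and Psmc5 lies at chr11:106255935-106256184 on the plus strand.
Uba2: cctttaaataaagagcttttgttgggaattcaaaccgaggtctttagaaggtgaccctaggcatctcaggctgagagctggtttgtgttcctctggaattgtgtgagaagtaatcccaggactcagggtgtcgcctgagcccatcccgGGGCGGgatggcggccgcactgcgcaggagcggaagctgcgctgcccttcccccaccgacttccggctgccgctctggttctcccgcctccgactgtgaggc
Psmc2, first listed start: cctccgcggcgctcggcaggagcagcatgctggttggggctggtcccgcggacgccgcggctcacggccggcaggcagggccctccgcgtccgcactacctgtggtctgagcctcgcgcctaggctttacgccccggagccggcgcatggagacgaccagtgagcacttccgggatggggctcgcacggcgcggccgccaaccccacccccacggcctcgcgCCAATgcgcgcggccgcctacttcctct
Psmc2, second listed start: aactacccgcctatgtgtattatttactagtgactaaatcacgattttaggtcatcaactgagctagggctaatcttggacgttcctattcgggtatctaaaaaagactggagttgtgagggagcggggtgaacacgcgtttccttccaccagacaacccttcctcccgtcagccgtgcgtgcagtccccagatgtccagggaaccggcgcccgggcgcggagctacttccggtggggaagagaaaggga
Psmc5: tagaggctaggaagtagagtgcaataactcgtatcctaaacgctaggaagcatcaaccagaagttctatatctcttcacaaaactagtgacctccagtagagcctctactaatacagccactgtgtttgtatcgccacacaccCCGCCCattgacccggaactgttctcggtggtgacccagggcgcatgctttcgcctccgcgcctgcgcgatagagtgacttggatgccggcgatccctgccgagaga

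Uba2 holds a GC box, Psmc5 a GC box read on the other strand, the first listed Psmc2 start a CCAAT box, and the second listed Psmc2 start no match. Over the 64 members with a promoter in the table, CCAAT was found in 31.2%, against 40.5% of the 6140 genes of the stage tables and 37.5% of all 27025 genes. The GC box was found in 64.1% of members, against 66.6% and 35.4%. TGACNNNGC was found in 10.9% of members, against 14.4% and 11.5%. The octamer was found in 1 member, a regulatory particle gene (1.56%), against 1.32% and 1.81%. By group, 6 of 12 core genes, 4 of 14 regulatory particle genes and 7 of 25 E1 and E2 genes held CCAAT. A match describes letters in this window and does not show binding.

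Across stages, 67 members are in all 3 tables. Of these, 7 of 17 regulatory particle genes and 3 of 14 core genes were higher in null by mean at all 3 stages, as 15.6% of all genes were. Psmc2, Psmd4, Psmd11, Psmd12, Psme2b, Uba1, Ube2e3 and Ube2q2 lay wholly above wild type at 2 or more stages (8 of 67, beside 6.08% of all genes). Of these, Ube2q2 at E4.5 was listed through its null libraries alone. Psme2b at E2.5, at 11.7 CPM in null and 6.30 CPM in wild type embryos by mean, also reached the listing level through null libraries. Uba2, Ube2a and Ube2l3 lay wholly below at 2 or more stages (3 of 67, beside 6.94%). These are counts from separate libraries at each stage.

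Of the 67, 5 stood apart in opposite directions at different stages, as 6.17% of all genes did. Psmd12 is also among the 8 above, since its null libraries lay below wild type at E2.5, with 579, 557 and 557 CPM in null and 598, 679.7 and 624 CPM in wild type libraries, and above at both later stages. At E4.5 it had 485, 456 and 506 CPM in null and 389, 423 and 396 CPM in wild type libraries. The genotype difference of Psmd12 at E4.5 minus that at E2.5 was 0.43 ± 0.13 on the log2 scale (SE, limma over 18 libraries, adjusted p = 0.0842). Psmc3 and Psmb3 lay below wild type at E2.5 and above at a later stage. Psme3 had 132, 124 and 147 CPM in null and 150.4, 157 and 158 CPM in wild type libraries at E3.75, below wild type, and lay above at E4.5.

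Ube2o, a combined E2 and ligase, lay above wild type at E2.5 and below it at E3.75. It had 97.7, 95.7 and 88.1 CPM in null and 50.2, 84.1 and 77.0 CPM in wild type libraries at E2.5, and 22.0, 19.6 and 21.6 CPM in null and 35.7, 31.4 and 31.2 CPM in wild type libraries at E3.75. Its genotype difference at E3.75 minus that at E2.5 was -1.06 ± 0.32 (SE, limma over 18 libraries, adjusted p = 0.107). No member passed in any of the 3 differences between stages, for which 1.12% (E3.75 minus E2.5), 1.01% (E4.5 minus E2.5) and 0.0921% (E4.5 minus E3.75) of all genes did. In the same order 9, 11 and 10 of 67 members had an unadjusted p under 0.05, beside 13.9%, 17.1% and 14.3% of all genes. The smallest adjusted p of a member were 0.107 for Ube2o, 0.0778 for Ube2q2 and 0.172 for Psmb2. Ube2q2 was listed at E4.5 through its null libraries alone, so its value is not support for a difference between stages. Without wild type library B of E4.5, 4 members passed for E4.5 minus E2.5, as 3.11% of all genes did: Psma4 (which has a near copy in a pseudogene), Psmc3, Psmd4 and Ube2q2. These tests use the same libraries as the comparisons within stages.

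**Figure D5:**
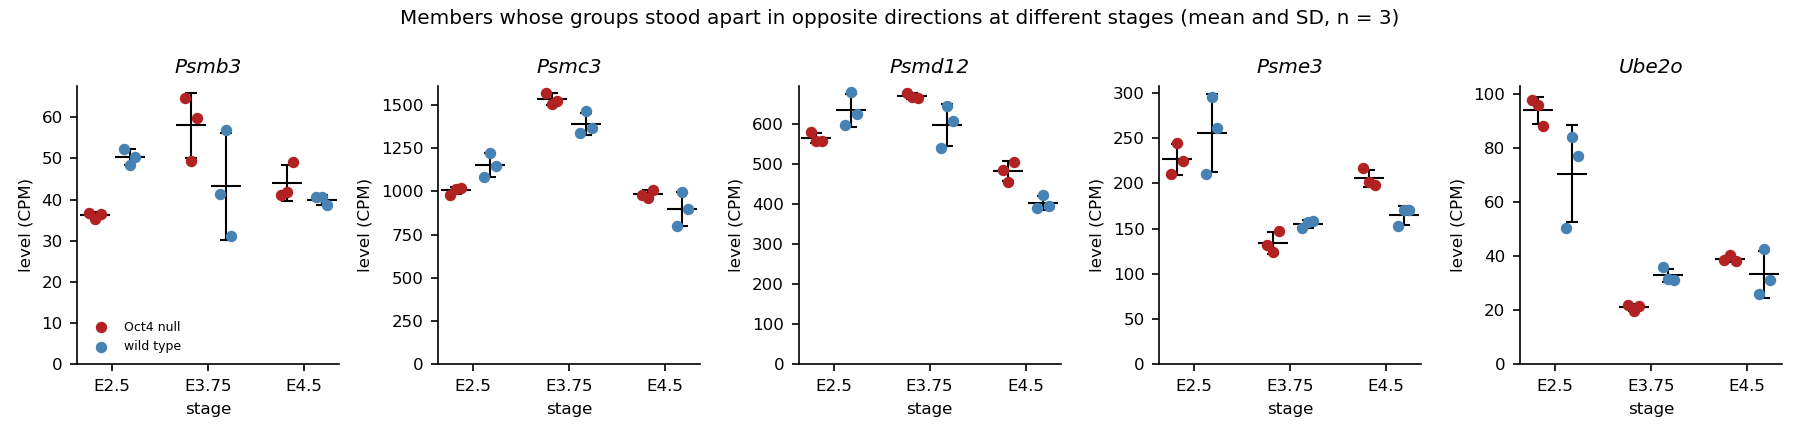
Level in CPM of the 5 members whose genotypes stood apart in opposite directions at different stages, in each library (points) with mean and SD (bars, n = 3), null in red left of wild type in blue. Psmd12 null libraries lie below wild type at E2.5 and above at E3.75 and E4.5, and Ube2o null libraries lie above wild type at E2.5 and below at E3.75.

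Other genes of the pathway moved in both directions at E3.75, where 8.2% of all genes passed. None passed at E2.5 (0.593% of all genes did) or E4.5 (0.0%). With so few genes per list, the counts below are not read as a result about the pathway. Among 7 measured precursors of ubiquitin and its relatives 1 passed: Ubb, a polyubiquitin gene, fell to 317 ± 8.46 CPM in null, against 397 ± 28.0 CPM in wild type embryos (SD, n = 3 each; log2 difference -0.32, limma, adjusted p = 0.0477). Among 10 proteasome-bound factors 1 passed: Ubqln4, a shuttle of ubiquitinated proteins, at 29.5 ± 2.25 CPM in null and 57.8 ± 8.37 CPM in wild type embryos (log2 difference -0.94, limma, adjusted p = 0.00834). Of 25 cullin and anaphase-promoting complex genes, 2 rose and 1 fell. Rnf7, a RING subunit of cullin ligases, averaged 472 ± 40.7 CPM in null and 323 ± 47.4 CPM in wild type embryos (log2 difference 0.55, limma, adjusted p = 0.00307). Anapc10 rose as well (log2 difference 0.46), and Cul7 fell (log2 difference -0.90).

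No gene passed among 7 measured p97 factors, 5 other E1-related genes or 7 regulators of proteasome genes at E3.75, beside 8.2% of all genes. Nfe2l1, the transcription factor that raises proteasome gene expression when proteasomes are inhibited, averaged 78.3 ± 16.3 CPM in null and 78.5 ± 13.8 CPM in wild type embryos there. At E4.5 it averaged 66.0 ± 6.34 CPM in null and 38.2 ± 8.87 CPM in wild type embryos (SD, n = 3 each), without overlap (log2 difference 0.79, limma, adjusted p = 0.169). Pomp, the maturation factor of the core, averaged 560 ± 48.8 CPM in null and 724 ± 42.0 CPM in wild type embryos at E4.5 (log2 difference -0.37, limma, adjusted p = 0.169), the opposite direction to the core genes by mean. Nfe2l1 and Pomp were picked outside the naming rule, and other genes of these lists differed as much. Nploc4, a p97 factor, had a log2 difference of 0.81 at E4.5 (limma, adjusted p = 0.143). Whether Nfe2l1 bears on the proteasome genes here was not tested.

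Markers of the embryo's cell types differed by genotype as well. At E3.75, 7 of 10 measured epiblast and inner cell mass markers passed (2 higher, 5 lower), beside 8.2% of all genes. Their list sums were 1783 to 1926 CPM in null and 1878 to 2401 CPM in wild type libraries. This list holds Pou5f1 itself at every stage, and Pou5f1 is among the 5 lower. Of 9 primitive endoderm markers 6 passed (2 higher, 4 lower), with sums of 1478 to 1616 CPM in null and 1285 to 1444 CPM in wild type libraries. Of 10 trophectoderm markers Tead4 alone passed, higher in null, and the sums were 6365 to 7272 CPM in null and 7102 to 8347 CPM in wild type libraries. Both measured oocyte markers, Khdc3 and Tcl1, were lower, at 1763 to 1910 CPM in null and 2321 to 2540 CPM in wild type libraries summed. Of 2 measured markers of maternal blood Hba-a1 was higher, with sums of 58.2 to 171 CPM in null and 43.3 to 56.0 CPM in wild type libraries.

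At E4.5 no marker passed, as no gene of that stage did. The epiblast list summed to 1187 to 1474 CPM in null and 1974 to 2204 CPM in wild type libraries, the primitive endoderm list to 1241 to 1407 CPM in null and 1435 to 1532 CPM in wild type libraries, and the trophectoderm list to 12335 to 13397 CPM in null and 13101 to 14065 CPM in wild type libraries. Oocyte markers summed to 997 to 1134 CPM in null and 1169 to 1184 CPM in wild type libraries, and maternal blood markers to 45.6 to 353 CPM in null and 55.2 to 75.6 CPM in wild type libraries. At E2.5 1 marker passed in each of 2 lists, Pou5f1 lower and Hand1 higher in null, beside 0.593% of all genes. Epiblast sums were then 1723 to 1833 CPM in null and 2506 to 2885 CPM in wild type libraries, and trophectoderm sums 3336 to 3754 CPM in null and 2939 to 3341 CPM in wild type libraries. The epiblast sum holds Pou5f1 itself, which averaged 968 CPM in null and 1875 CPM in wild type embryos. Of the 8 measured epiblast markers, 4 were higher and 4 lower in null by mean, with a median log2 difference of 0.0067. The part of these markers in the proteasome results was not tested.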

How the data were processed

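RNA of embryos was reverse transcribed from oligo(dT) and amplified near the poly(A) tail, per the labels' protocols. The values deposited by the authors are CPM, in a table for each stage. edgeR and mm9 stand in the submitters' processing notes, and the aligner and counter were not given in the sources used here. Columns sum to 1000000 CPM within a table. In the files every gene reaches at least 10.3 CPM in 3 of 6 libraries. All 121650 CPM values were whole multiples of 1 read (within 0.01 reads), which gave the depths. No per-sample column was left unused.

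Genotypes were compared within each stage by limma 3.58.1 (R 4.3.3) with a variance trend on log2(CPM + 1), two-sided, with Benjamini-Hochberg adjustment over all genes of the table and a threshold of 0.05. Differences on this scale understate the change of low genes. Differences between stages came from a fit over 18 libraries, adjusted over the 5430 shared genes. Alternatives were edgeR 4.0.16 and DESeq2 1.42.0 on the recovered reads, beside other pseudocounts, scalings, filters, left-out libraries and a replicate block. Groups "stood apart" when their libraries did not overlap. No test was run over a list. Methods were tested on simulated data.

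Members, gene lists and motifs were chosen with earlier results of these data known. Named are members that passed, the greatest difference per subgroup and stage among members without overlap and with a mean of at least 10 CPM, a fixed set of enzymes, and up to 3 passing genes of each pathway list. Setting Psmc3ip and Ube2cbp apart, and naming other members, were choices made after their values were seen. Nfe2l1, Pomp and Nploc4 did not pass and are named outside this rule. Near copies were sought in GENCODE transcripts over the last 1000 bases (at least 95% identity over 200 bases), for 74 of 78 members, and 11 had one. Those named in the results are marked there, and the others include Psmg3 and Ube2e1. A few members are counted with their groups but not reported here by name. RefSeq promoters (GRCm38.p6) matched 64 of 78 members by symbol. Ube2e3 has no promoter sequence here.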

Additional observations from a re-analysis of the deposited data

How the results depend on the processing

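Alternatives changed the number of members called more than the medians by group. At E3.75 the 4 members called became 8 with edgeR, 5 with DESeq2, 0 with the first 2 libraries of each group, 0 in a fit over all 18 libraries and 0 to 7 when leaving out each library in turn. At E2.5 leaving out a library gave 0 to 3. At E4.5 it gave 0 to 1, DESeq2 gave 1, and the 18-library fit gave 5, with Psmd4, Psmd11, Ube2e3 and Ube2q2 higher and Ube2a lower in null. Ube2q2 was listed at that stage through its null libraries alone. For E4.5 minus E2.5 leaving out a library gave 0 to 4. The regulatory particle median ran from 0.15 to 0.21 at E3.75 and from 0.19 to 0.33 at E4.5 over all alternatives. At E2.5 it ran from -0.022 to 0.042 when leaving out a library. The E1 and E2 median at E3.75 was 0.066 with edgeR and -0.035 to 0.073 leaving out a library, and at E4.5 -0.19 with reads thinned to 364936 per library (an alternative chosen after seeing the data) and -0.082 to 0.13 leaving out a library. The core median at E3.75 was -0.013 to 0.082 leaving out a library. The cause of these shifts was not tested.

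Over all genes, 42 calls at E2.5 became 179 with edgeR, 238 with DESeq2 (adjusted p undefined for 1785), 139 in the 18-library fit, 99 with TMM factors, 93 with DESeq2 size factors, 66 thinned, 1 with the first 2 libraries, and 1 to 773 leaving out a library. At E3.75, 545 calls (239 higher, 306 lower in null) became 503 with TMM factors (287 higher, 216 lower), 307 with DESeq2 (3738 undefined), 155 with the first 2 libraries, 213 in the 18-library fit and 209 to 652 leaving out a library. At E4.5, 0 calls became 42 with edgeR, 112 with DESeq2 (3934 undefined), 221 in the 18-library fit, 7 thinned, and 0 to 120 leaving out a library. Replicate numbers did not pair libraries: same-number correlations were 0.04, 0.12 and -0.003 at E2.5 and -0.007, -0.03 and 0.01 at E3.75. With the replicate block, 0 members passed at E2.5 and 3 at E3.75 (Ube2e3 was lost), and 30 and 438 genes in all. No paired analysis was possible at E4.5 because its wild type columns carry no numbers. Depth limits members with few reads: Ube2q2 had 1 read in wild type library A of E4.5.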
